A study of Mus musculus with 7 samples.

Results

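Erythroid Krüppel-like factor (EKLF, gene Klf1) was mapped by chromatin immunoprecipitation and sequencing (ChIP-seq) in erythroid progenitors and erythroblasts, and the regions described here are the EKLF peaks found in both stages that lie away from coding exons. A region was a member where an erythroblast peak overlapped a progenitor peak by at least 1 bp and lay more than 1 kb from every coding exon start listed in the expression table. Of 19353 erythroblast peaks 5137 met this rule, or 26.5% (Wilson 95% interval 25.9 to 27.2). They overlapped 5122 of the 7358 progenitor peaks. The other erythroblast peaks were 12685 away from exons with no progenitor partner, 840 shared peaks within 1 kb of an exon start and 691 unshared peaks within 1 kb. The overlap, the distance and the enrichment of these peaks come from the lists that chose them, so they are given as description with no test: the members were selected on the peak positions of both lists and on the exons with RNA signal.

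All cells came from fetal liver of mice at stage E13.5 that carried hemagglutinin-Klf1, in which KLF1 bears a hemagglutinin (HA) tag. Progenitors were sorted as Ter119-CD71- and Ter119-CD71+ cells in 1 pool, and erythroblasts as Ter119+CD71+ cells. Ter119 appears on the surface as red cells mature, and CD71 takes up iron-loaded transferrin. Chromatin was pulled down with the HA antibody F-7, and antibody-free input chromatin from cells of the same genotype was the background. RNA was sequenced from the same 2 populations. The labels report at least 3 sorts of each population, but the values are 1 pooled peak list and 1 RNA column per stage, so no difference between stages has a replicate check. The labels give 2 RNA libraries for erythroblasts and 1 for progenitors. Whether the erythroblast column holds 1 or both of its libraries is not stated. Every group carried the tagged allele, and a group without the tag was not analysed here.

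EKLF is a zinc finger transcription factor of red cells that binds CACCC boxes, GC-rich sequences found in globin promoters and in many other erythroid promoters and enhancers. It is known for switching on adult beta-globin and genes of heme synthesis, the red cell membrane and the cell cycle. Many erythroid control elements lie far from the exons they act on, among them the alpha-globin enhancers, which sit in introns of the neighbouring gene Nprl3.

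No genome of build mm9, the build of the peak lists, was used here, so the bases under the peaks are not printed. Promoters of genes with a member on the 5′ side of their listed exons are shown instead, because they let the CACCC-type motif be seen beside these regions. The motif searched was CCNCNCCC on both strands, with overlapping matches allowed, in the 250 bases before each start in the RefSeq table of GRCm38.p6. The 5 genes are the 4 of the 8 largest RNA rises that had such a member and an entry in that table, and the largest fall, Ripor1. Capitals mark motif matches, and a match on the other strand reads as its reverse complement.
Bach1: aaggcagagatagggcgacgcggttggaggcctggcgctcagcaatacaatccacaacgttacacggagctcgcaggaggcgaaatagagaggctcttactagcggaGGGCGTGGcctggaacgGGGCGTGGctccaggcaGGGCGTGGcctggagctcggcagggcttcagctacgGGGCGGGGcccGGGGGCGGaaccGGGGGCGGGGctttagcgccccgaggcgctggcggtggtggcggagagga
Dhrs11: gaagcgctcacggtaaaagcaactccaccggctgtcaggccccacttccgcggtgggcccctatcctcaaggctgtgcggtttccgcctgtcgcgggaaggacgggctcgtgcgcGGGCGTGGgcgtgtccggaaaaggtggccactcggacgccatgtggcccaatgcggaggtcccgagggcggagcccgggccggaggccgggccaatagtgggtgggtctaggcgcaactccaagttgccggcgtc
Slc25a38: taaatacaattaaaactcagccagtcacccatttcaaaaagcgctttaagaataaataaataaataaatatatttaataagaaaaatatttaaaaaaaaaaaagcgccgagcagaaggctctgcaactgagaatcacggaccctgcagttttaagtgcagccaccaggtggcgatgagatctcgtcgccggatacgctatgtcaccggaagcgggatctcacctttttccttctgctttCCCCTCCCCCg
Tbc1d24: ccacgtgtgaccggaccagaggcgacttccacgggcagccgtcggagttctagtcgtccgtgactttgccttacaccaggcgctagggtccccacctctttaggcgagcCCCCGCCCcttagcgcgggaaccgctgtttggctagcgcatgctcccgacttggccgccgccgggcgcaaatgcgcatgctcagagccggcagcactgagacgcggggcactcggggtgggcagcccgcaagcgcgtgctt
Ripor1: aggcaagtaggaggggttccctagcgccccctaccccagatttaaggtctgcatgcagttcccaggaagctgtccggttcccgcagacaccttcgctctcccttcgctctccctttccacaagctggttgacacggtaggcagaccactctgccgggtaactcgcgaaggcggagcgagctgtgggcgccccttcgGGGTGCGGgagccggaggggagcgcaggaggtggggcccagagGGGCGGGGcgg
The Bach1 window lies on chromosome 16 from 87698704 to 87698953 on the plus strand of GRCm38.p6 and holds 7 matches, 2 of which overlap. The Slc25a38 window, on chromosome 9 from 120110132 to 120110381 on the plus strand, holds 2 overlapping matches at its 3′ end and has the lowest GC content of the 5 at 41.6%. Ripor1 has 2 matches, on chromosome 8 from 105604979 to 105605228 on the plus strand. Dhrs11 has 1 match, on chromosome 11 from 84829004 to 84829253 on the minus strand. The Tbc1d24 window, on chromosome 17 from 24205563 to 24205812 on the minus strand, also has 1. Tbc1d24 has 2 starts in RefSeq, of which only this 1 is shown. None of the 5 windows shown holds CCACACCC or AGATAA, a motif of GATA factors. These positions belong to GRCm38.p6 and cannot be set against the mm9 positions of the peaks, so whether a member covers any of these promoters was not analysed here.

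Across the table, CCNCNCCC stood in 69.7% (67.03 to 72.3) of 1147 promoters of genes with a member on the 5′ side within 20 kb. The share was 62.2% (60.8 to 63.7) of 4262 promoters of the other genes in the expression table and 45.9% of all 32851 promoters. The median GC content followed the same order, at 63.2%, 60% and 52.4%, and its part in the motif share was not tested. The stricter CCACACCC was found in 3.66%, 3.12% and 3.20% of the same groups, and AGATAA in 5.06%, 5.63% and 9.99%. The 1147 promoters belong to 866 genes and the 4262 to 3419. Starts of the same gene were counted apart, so the intervals are too narrow. A motif match in these windows is a description and marks no measured site.

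The share of erythroblast peaks that had a progenitor partner fell with distance from listed coding exons. It was 54.9% (52.4 to 57.3) of the 1531 peaks within 1 kb and 28.8% (28.2 to 29.5) of the 17822 beyond. Among the peaks beyond 1 kb it was 49.6% at 1 to 2 kb, 44.7% at 5 to 20 kb, 36.2% at 20 to 50 kb, 25.05% at 100 to 1000 kb and 21.4% beyond 1000 kb. Higher-ranked peaks were shared more often at every distance, and the share beyond 1000 kb was below that at 1 to 2 kb in each rank group. No header names the columns of the lists, so fold enrichment and −log10 p here are a reading from the columns' values. In the 25% of erythroblast peaks with the highest rank, by −log10 p and then enrichment, the share went from 72.0% at 1 to 2 kb to 39.9% beyond 1000 kb. In the lowest-ranked 25% it went from 30.2% to 7.67%.

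**Figure D1:**
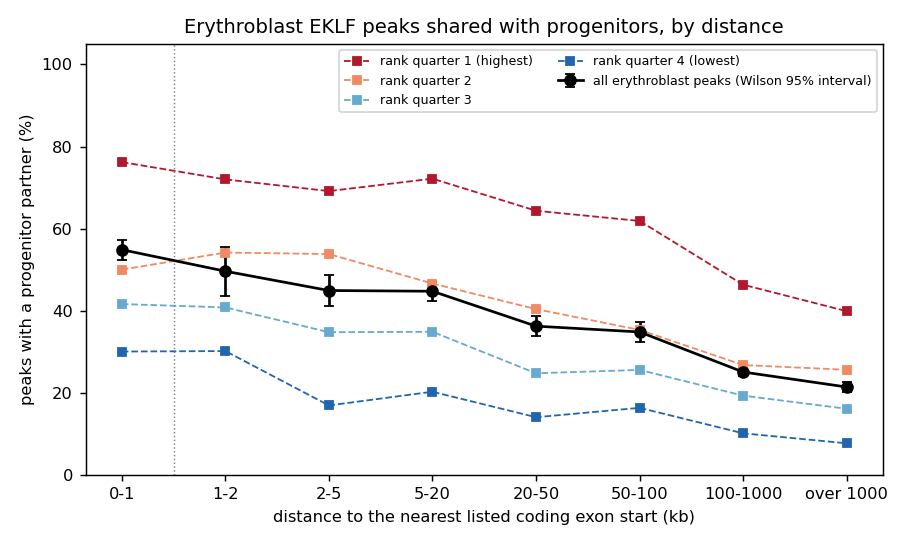
Percent of erythroblast EKLF peaks that overlap a progenitor peak (y axis) by distance in kb to the nearest listed coding exon start (x axis). Black points are all peaks with Wilson 95% intervals, coloured squares are the 4 rank groups of 25% each, and the dotted line is the 1 kb rule. The black points go from 54.9% within 1 kb to 21.4% beyond 1000 kb.

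Most members lay far from the listed exons. The median distance was 155 kb, below the 427 kb of unshared away peaks and the 263 kb of all erythroblast peaks. In all 23.2% (1190 members) were within 20 kb, 55.6% (2857) were beyond 100 kb and 20.6% (1056) beyond 1000 kb. The expression table lists only exons with RNA in both stages, so a member far from every listed exon can still lie in or beside a gene with little RNA. The farthest members sat on chromosome X between Hmgn5 and Cstf2. The outermost of them ran from 118169627 to 118172613, 11969 kb from Hmgn5, with an enrichment of 11.9. Pdhb had 32 members nearest to it, Cstf2 had 31 and Hmgn5 had 25, the most of any listed genes. At the rule's edge, a member near Stx5a lay 1004 bp from an exon start and a shared peak near Mrpl44 lay 994 bp from one. Their enrichments were 19.8 and 9.19. The smallest overlap of a member was 16 bp, near Abcg2, and the smallest gap of an unshared away peak to a progenitor peak was 5 bp, near Rps20.

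By chromosome, the shared share of away peaks was 35.6% (32.5 to 38.8) on chromosome 11, the highest, and 20.9% (18.8 to 23.2) on chromosome X, the lowest apart from Y. Those were 309 of 868 and 269 of 1287 peaks. On chromosome Y 1 of 31 peaks was shared. The other autosomes lay between 25.9% and 32.5%.

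Where a member was within 20 kb of a listed exon, it was mostly on the 5′ side of the nearest gene's listed exons. This held for 863 of 1190 members, or 72.5% (69.9 to 74.98), against 26.0% on the 3′ side and 1.51% between listed exons. For away peaks without a partner the shares were 64.9% (62.4 to 67.3), 29.3% and 5.77% of 1439. The listed exons are mostly the downstream ones of a gene, so a member on their 5′ side may still lie inside the gene. Where the first coding exon itself was listed, which could be told for 660 genes on the forward strand, 7.42% (5.66 to 9.68) had a member 1 to 20 kb upstream. For 1518 reverse-strand genes with the last coding exon listed, 11.1% (9.65 to 12.8) had a member 1 to 20 kb downstream. For unshared away peaks the 2 shares were 12.7% and 13.6%. The 2 sets hold different genes on different strands, so they do not compare the 2 sides of a gene.

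In all, 24 members, or 0.467% (0.314 to 0.694), lay wholly between the first and last listed exon of a gene. The share was 0.804% (0.663 to 0.9751) of the away peaks without a partner. Such stretches beyond 1 kb of an exon start cover 45.7 Mb of the 2575 Mb between the outermost peaks of the chromosomes, or 1.77%.

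The members had higher enrichment than the unshared away peaks and lower enrichment than the shared peaks near exons. The fold enrichment in the erythroblast list had a median of 10.75 in members, with quartiles of 8.33 and 14.7 and a range of 3.57 to 255. The medians were 8.87 in unshared away peaks and 13.2 in shared near peaks. Of the members 3628 (70.6%) ranked above the middle of the erythroblast list, and 71 were among its first 100 peaks. The median width was 1922 bp, against 1681 bp in unshared away peaks.

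The overlaps were nearly complete. The median overlap was 1697 bp, which is 99.9% of the shorter peak, and 5070 members (98.7%) shared at least 50% of the shorter peak. The centres of the partners differed by a median of 148 bp. Exactly 1 progenitor peak was met by 5114 members, and 23 met more. The partners' median enrichment in the progenitor list was 6.96, close to the 7.03 of that whole list. In erythroblasts the members' median of 10.75 stood above the 9.31 of the whole list. Across the 5137 pairs, the Spearman correlation was 0.35 for enrichment and 0.62 for width, given as a description over regions of the same 2 libraries.

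**Figure D2:**
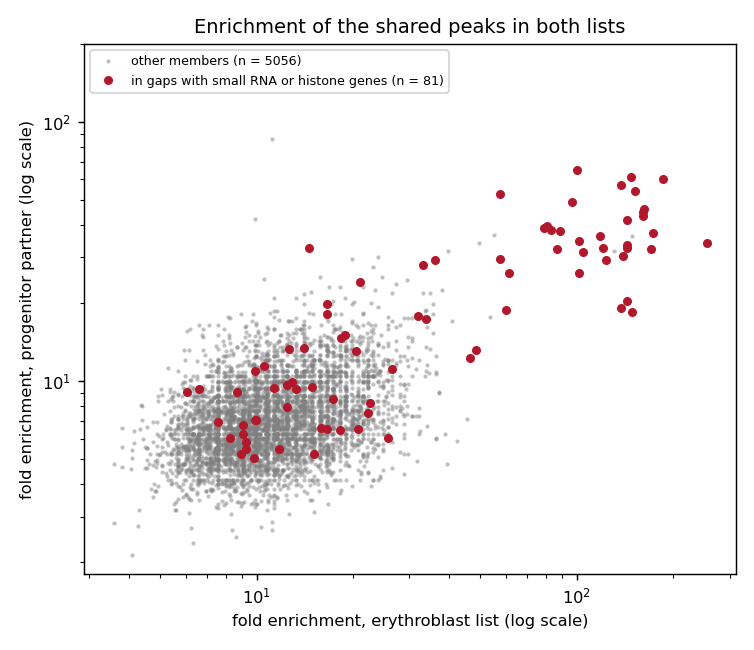
Authors' fold enrichment of each member in the erythroblast list (x axis, log scale) and of its progenitor partner (y axis, log scale). Red points are the 81 members in gaps between listed genes that hold small RNA or histone gene clusters, and grey points the other 5056. Nearly all points beyond an erythroblast enrichment of 50 are red, 34 of 38.

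The members with the highest erythroblast enrichment, or the highest rank in either list, mostly lay in certain gaps between listed genes. These gaps hold clusters of tRNA, small nuclear RNA, 5S rRNA or replication-dependent histone genes. Transfer RNA and 5S rRNA genes are read by RNA polymerase III, most spliceosomal small nuclear RNA genes and the histone genes by RNA polymerase II, and all are present in many copies. Members were placed in the gap between consecutive genes of the expression table, and the gap's contents were read from the gene order in RefSeq GRCm38.p6, with no coordinates carried over. A gap counted as such a cluster where it held at least 5 tRNA, rRNA or small nuclear RNA genes making up at least 20% of its genes, or at least 3 clustered histone genes. This definition, and the enrichment level of 50, were chosen after the top-ranked regions had been seen.

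By this definition 81 members (1.58%) lay in such gaps, but 32 of the 50 highest-ranked did, or 64% (50.1 to 75.9). The share was 39% of the 100 highest-ranked and 0.834% of the rest. Among unshared away peaks it was 0.481% in all and 2% of the 50 highest-ranked. No unshared away peak had an enrichment above 43.8, so the groups of 50 were not matched in enrichment. Among the 50 highest-ranked shared peaks near exons it was 12% (5.62 to 23.8). Ranked by the progenitor list instead, 68% (54.2 to 79.2) of the 50 highest members lay in such gaps. The highest progenitor enrichment of any member's partner, 85.8, was outside these gaps, and inside them it reached 65.4. Of the 38 members with an erythroblast enrichment of at least 50, 34 lay in such gaps, or 89.5% (75.9 to 95.8). The 81 members fall in few gaps, single ones of which hold 13, 13 and 10 of them. Peaks of the same gap are not independent, so the intervals given here are too narrow.

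**Figure D3:**
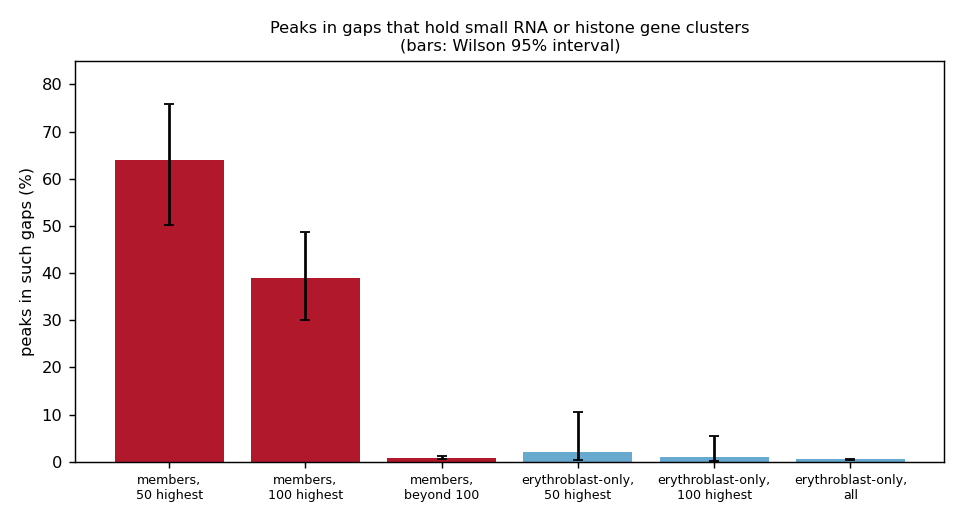
Percent of peaks in gaps that hold small RNA or histone gene clusters (y axis) for members (red) and for away peaks without a progenitor partner (blue), by rank in the erythroblast list. Error bars are Wilson 95% intervals, which take peaks as independent although many share a gap. The share is 64% of the 50 highest-ranked members and 2% of the 50 highest-ranked unshared peaks, groups that are not matched in enrichment.

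The first-ranked erythroblast peak of all was a member in the gap between Zkscan3 and H4c9 on chromosome 13. It ran from 21825835 to 21828328 (mm9), with an enrichment of 137 in erythroblasts and 56.9 in progenitors. Among its 86 genes this gap holds 34 tRNA and 20 histone genes, and it had 13 members with a median erythroblast enrichment of 118. Which gene of the gap lies nearest to a member was not analysed here. Among these members, the peak from 21840989 to 21842972 had 185 in erythroblasts and 60.0 in progenitors, and that from 22125948 to 22129263 had 170 and 32.4. Further along the same chromosome, the gap between H2bc4 and BC005537 held 13 histone genes and 10 members. Its leading peak, from 23851660 to 23854842, had 173 in erythroblasts and 37.3 in progenitors. A cluster of 4 members within 21.5 kb, between H2ac10 and H2ac8, had a median erythroblast enrichment of 122.

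On chromosome 3 the gap between Bola1 and Txnip holds 25 tRNA, 8 small nuclear RNA and 10 histone genes, and it had 13 members. Its peak from 96040438 to 96045431 had the highest enrichment of any erythroblast peak, 255, and 34.2 in progenitors, where it ranked 5. On chromosome 11 the gap between Trim37 and Mtmr4 holds 8 entries classed as small nuclear RNA in RefSeq. Named among them are Rnu1a1 (U1) and the U3 genes Rnu3b1, Rnu3b2, Rnu3b3 and Rnu3b4. This gap had 8 members with up to 162 in erythroblasts and 46.3 in progenitors. The gap between Nbr1 and Dhx8, which holds the U2 gene Rnu2-10, had 6 members with up to 101 and 49.3.

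The 4 members above 50 outside these gaps were named after their values were seen. On chromosome 13 the peak from 23675726 to 23678540 had 149 in erythroblasts and 36.4 in progenitors. It lay between the histone genes H4c4 and H1f4, in a gap of 2 genes, too few to count. The peak from 51297714 to 51299476 on chromosome 13, between Iars and Cks2, had 131 and 31.7. That from 71759537 to 71760706 on chromosome 10, between Cisd1 and Zwint, had 55.2 and 36.7. The peak on chromosome 12 from 70461810 to 70463359 had 53.6 and 17.7, and its gap between Nemf and Arf6 holds 2 genes, one of them Rn7s2, which encodes the RNA of the signal recognition particle. Whether copies of these gene classes are alike enough to share reads was not analysed here. The rule by which reads were placed is also not known, so enrichment at 1 copy may in part belong to another.

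Broad regions were also found among the high-ranked members. Of the 50 highest-ranked, 7 were at least 20 kb wide and outside the small RNA and histone gaps. Of the 11 others outside these gaps, 1 was flanked by a histone gene and 10 had widths of 1763 to 14869 bp. In all 9 members were that wide. The widest, 88.3 kb on chromosome 8 from 126060830 to 126149149, lay in the gap between Afg3l1 and Nup133, which holds 48 rRNA genes of the 5S class. Its enrichment was 22.6 in erythroblasts, and its progenitor partner was 88.6 kb wide with 8.21. Between Ezh2 and Pdia4 on chromosome 6, members of 37.6 kb and 42.6 kb had enrichments of 34.5 and 29.3. Their progenitor partners had nearly the same borders and enrichments of 10.8 and 9.36. That gap holds the small RNA genes Rn4.5s, Rny1 and Rny3.

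A stretch of 148 kb on chromosome 6, between Sec13 and Tamm41, was covered by 6 members from 114439690 to 114588003 with a median enrichment of 10.9. In progenitors most of it was 1 peak of 126 kb with an enrichment of 6.74. On chromosome X a progenitor peak of 57.4 kb between Eif2s3x and Las1l spanned several members, the widest of them 25.3 kb with an enrichment of 5.96. These broad regions kept a similar extent in both stages.

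Slc25a37, which encodes mitoferrin-1, the importer of iron into mitochondria of red cells, had a broad member that did not keep its extent. In erythroblasts it ran 28.1 kb on chromosome 14 from 69876263 to 69904358, 8.81 kb on the 5′ side of the listed exons, with an enrichment of 42.2 and rank 26. Its progenitor partner covered 2.41 kb at the far end, from 69901697 to 69904110, with an enrichment of 5.88 and rank 2179. RNA of Slc25a37 went from 6.42 to 196.

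The progenitor peak of rank 2 in its list met a member on chromosome 1 from 24618040 to 24623373, between Smap1 and Phf3, 689 kb from a listed exon. The enrichment was 42.3 in the progenitor list and 9.88 in the erythroblast list, where the member had rank 81.

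**Figure D4:**
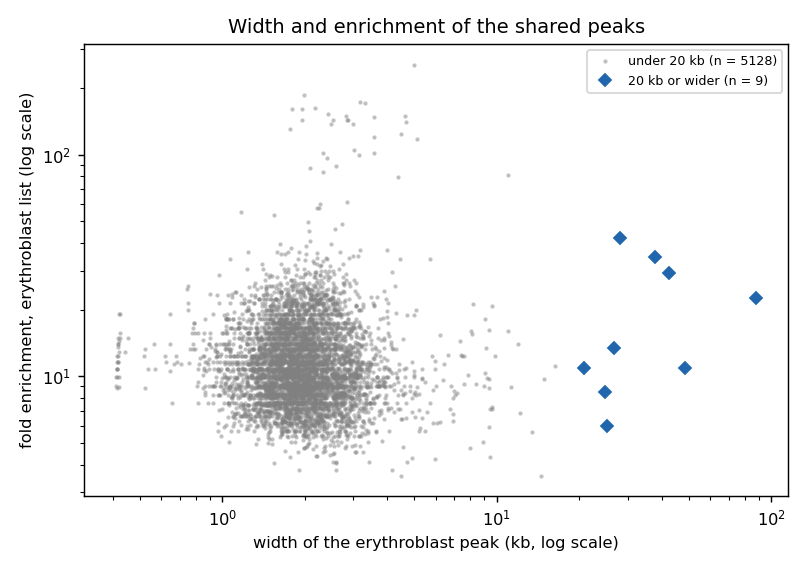
Width in kb (x axis, log scale) and authors' fold enrichment (y axis, log scale) of the 5137 members in the erythroblast list. Blue diamonds are the 9 members at least 20 kb wide. The members with enrichments above 100 are a few kb wide, and the widest, at 88.3 kb, has 22.6.

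Members were mostly solitary. With members joined where less than 10 kb separated them, 4793 stood alone, 136 groups had 2, 9 had 3 and 7 had 4 or more. Groups held 6.70% of members. The largest group had 15 members over 50.7 kb on chromosome 4, from 88402585 to 88453315 between Klhl9 and Plaa, with a median enrichment of 15.95. This gap holds the interferon alpha genes and the cell cycle inhibitors Cdkn2a and Cdkn2b. A group of 4 on chromosome 1 from 72271679 to 72302134 lay between Atic and Xrcc5, a gap with the fibronectin gene Fn1.

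RNA was compared by gene. The distance rule used exons with RNA in both stages, so RNA level helped choose the regions and genes, while the difference between stages was not used. The signal is coverage summed over the listed exons of 1 transcript, and a gene is said to have risen or fallen where (erythroblasts + 1) / (progenitors + 1) was at least 2 or at most its inverse. Of the 5194 genes with a value of at least 1 in a stage, 15.3% rose and 13.2% fell. A member lay within 20 kb of a listed exon start of 1429 genes. Among these 227 rose, or 15.9% (14.1 to 17.9), and 194 fell, or 13.6% (11.9 to 15.4), which is near the shares over all genes. Genes with an unshared away peak and no member showed 15.9% and 13.8%. Genes with neither showed 14.7% and 12.7%. Of the 181 genes with at least 2 members 17.1% (12.3 to 23.3) rose and 20.4% (15.2 to 26.9) fell. In bulk RNA of sorted cells, fewer cells of a type and less RNA per cell cannot be told apart.

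**Figure D5:**
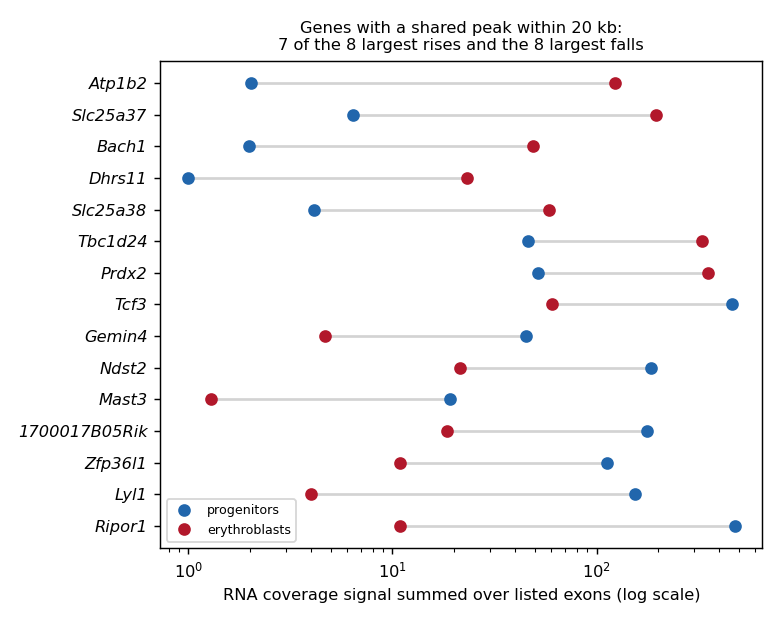
RNA coverage signal summed over the listed exons (x axis, log scale) in progenitors (blue) and erythroblasts (red) for genes with a member within 20 kb, 7 of the 8 largest rises and the 8 largest falls (y axis). Atp1b2 spans 2.02 to 123 and Ripor1 477 to 10.9. The 2.02 is a sum over 2 exons, near the listing floor of 0.8 per exon.

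Among genes of heme synthesis and iron uptake, those with a member mostly rose, as did the group as a whole. Of 18 listed genes of this group 7 had a member within 20 kb, of which 6 rose and none fell; over the whole group 12 of 18 rose and 1 fell. The median log2 difference was 2.74 in the 7 and 1.54 in the 18, against 0.03 over all genes. Slc25a38, a mitochondrial carrier needed for heme synthesis, went from 4.12 to 58.3. It had a member on each side, 4.99 kb on the 5′ side with enrichments of 21.5 in erythroblasts and 6.82 in progenitors, and 5.95 kb on the 3′ side with 24.0 and 14.1.

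Tfrc, which encodes CD71, the antigen used for the sort, went from 21.3 to 148. Its 5′ member lay 4.93 kb from the listed exons, on chromosome 16 from 32608417 to 32609727, with enrichments of 26.5 in erythroblasts and 10.4 in progenitors. A further member 14.6 kb on the 3′ side had 8.27 and 4.77. Cpox went from 281 to 755, with a member 14.97 kb on the 5′ side. Urod, the enzyme that acts just before Cpox, went from 52.1 to 166, with a low-ranked member 1.51 kb away that had enrichments of 6.62 and 4.17. Ireb2, an iron sensor that binds mRNA, was the gene of the 7 that did not pass, at 1.62 and 1.23.

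Of the globin group Nprl3 had a member, and it was inside the gene, on chromosome 11 from 32159291 to 32160926. It had an enrichment of 24.1 and rank 952 in erythroblasts, and 10.9 and rank 198 in progenitors. Nprl3 RNA went from 15.8 to 46.2. No member lay within 20 kb of the listed exons of Klf1, of E2f2 or of a listed globin gene. Among 12 listed genes of the red cell membrane and skeleton, 11 of which rose, Epb41 alone had a member. Epb41, which encodes protein 4.1 of the membrane skeleton, went from 142 to 288 and had a member 2.21 kb on the 3′ side with enrichments of 19.4 and 7.45 and rank 163.

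Other genes that rose beside a member differed widely in function. Atp1b2, a beta subunit of the sodium pump, went from 2.02 to 123, with its member 19.2 kb on the 3′ side and nearest to Wrap53. Bach1, a repressor that is released from DNA by heme, went from 1.99 to 48.7. Its member ran on chromosome 16 from 87698303 to 87700113 (mm9), 18.9 kb on the 5′ side of its listed exons, with enrichments of 25.6 and 6.68. The Bach1 promoter printed above held the most CCNCNCCC matches of the 5. Dhrs11, a short-chain dehydrogenase, went from 0.99 to 23.2 on 1 listed exon, with a member 6.40 kb on the 5′ side. The progenitor values of Atp1b2 and Bach1, each over 2 exons, and of Dhrs11 lay near the listing floor of 0.8 per exon. Tbc1d24 went from 46.2 to 327, with a member 19.3 kb on the 5′ side that was nearest to Tedc2. Prdx2, an abundant antioxidant enzyme of red cells, went from 51.4 to 353 and had 2 members on its 3′ side that were both nearest to Junb.

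The largest falls beside a member included transcription factors of early blood cells. Ripor1 went from 477 to 10.9 on 1 listed exon. It had a member 18.5 kb on the 3′ side with enrichments of 29.8 and 13.54 and ranks of 142 and 153, and a weaker one on the 5′ side. Lyl1, a basic helix-loop-helix factor of stem and progenitor cells, went from 154 to 3.98. Its member lay 14.2 kb on the 5′ side and was nearest to Trmt1. Tcf3, which encodes the E proteins that pair with such factors, went from 461 to 60.1 and was lower in all 17 listed exons. Its 2 members lay 2.04 kb on the 5′ side and 9.63 kb on the 3′ side, the latter nearest to Mbd3. Zfp36l1, an RNA-binding protein that speeds mRNA decay, went from 112 to 10.9 on 1 listed exon. Ndst2, a heparan sulfate enzyme, went from 185 to 21.5 with a member 4.17 kb on the 5′ side of enrichment 24.2. Mast3 went from 19.1 to 1.29, near the listing floor of 0.8. Gemin4, a part of the SMN complex that assembles spliceosomal particles, went from 45.0 to 4.66, and 1700017B05Rik from 176 to 18.5. Mast3 and Gemin4 each rest on 1 listed exon.

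Of 22 listed erythroid transcription factors and partners 5 had a member, 1 of which rose and 2 fell, while over the group 5 rose and 2 fell. Klf3, a related factor that EKLF is known to activate, went from 22.1 to 45.3, at the edge of the 2-fold rule. Its member, 17.3 kb on the 5′ side, had an enrichment of 31.6 and rank 97 in erythroblasts, and 4.93 and rank 3039 in progenitors. Ldb1, which bridges distant enhancers and promoters, had 258 and 152 and 2 members on its 5′ side. Sp3 had 2.19 and 4.33, with a member of rank 121. Runx1, 1 of 2 listed stem and progenitor genes, had 50.35 and 31.1 and a member 1.23 kb on the 5′ side.

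Among cell cycle genes the directions differed. Of 9 listed G1 regulators, 4 of which rose and 2 fell, 5 had a member, of which 2 rose and 1 fell. The inhibitors Cdkn2c, from 4.51 to 17.0, and Cdkn2d, from 1.28 to 5.69 on 1 listed exon, rose, and the kinase Cdk2 fell from 43.4 to 15.3. The 1.28 of Cdkn2d lay near the listing floor of 0.8. Cdk2 had a log2 difference of -1.45, but the median of its 8 exon log2 ratios was -0.70, which does not pass the rule. The Cdkn2c member lay 10.99 kb on the 5′ side with enrichments of 27.3 and 7.93. Of 22 genes of S phase and mitosis, 5 of which rose and 1 fell, 6 had a member, or about the share of all genes given below. Ccne1, the cyclin that drives entry into S phase, went from 9.78 to 58.5 with 2 members, and Cdt1, which loads the replicative helicase, fell from 124 to 42.8. Pcna, Aurkb, Rrm2 and Ccnb1 did not pass.

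Of 11 listed genes of autophagy and terminal maturation 5 had a member, of which 3 rose and none fell, and over the group 7 rose. Tent5c, a poly(A) polymerase, went from 24.6 to 170, Mxi1, a MYC antagonist, from 4.70 to 26.0, and Map1lc3b, an autophagosome protein, from 5.24 to 18.9. Tent5c and Map1lc3b each rest on 1 listed exon. Ulk1, the kinase that starts autophagy, had 59.8 and 46.9 and 3 members within 20 kb, the most in this group. Of these members 2 met the same progenitor peak, 1 of them by only 73 bp, and the other was nearest to Pus1. Of 14 chromatin regulators, none of which rose and 2 fell, 6 had a member, and Kmt5a among them fell from 73.7 to 35.6. Dot1l, Ep300, Med1, Ncor1 and Smarca4 did not pass. Of 14 ribosome biogenesis genes, 8 of which fell, 2 had a member. Wdr12 fell from 4.99 to 1.53 on 1 listed exon, while Fbl had 14.7 and 10.9. Of 6 housekeeping genes Hprt, which fell from 5.14 to 1.92, and Tubb5 had a member. Hprt had a median of -0.98 over its 2 exons' log2 ratios, which does not pass the rule. Its erythroblast value lay near the listing floor of 0.8 per exon. Over all genes 15.3% rose, 13.2% fell and 27.5% had a member within 20 kb, beside 7 of 18 for the heme and iron group and 1 of 12 for the membrane group.

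Markers of hepatocytes, macrophages, granulocytes and mast cells, and lymphoid cells had no exon in the expression table, which requires RNA in both stages. Of 5 megakaryocyte markers 1 was listed, it rose, and it had no member.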

How the data were processed

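The authors' deposited peak lists, 1 pooled list per stage, have no header. From its values, column 7 as deposited by the authors, never below 2.14, was read as a ratio, the fold enrichment. Column 8 as deposited by the authors, never below 5, was read from its values as a −log10 p. The deposited files state neither meaning. Both were read within a list. Per the submitters' processing notes the build is mm9, while the aligner, counter and peak caller were not given in the sources used here. RPKM is in the name of the deposited RNA table, yet the values are whole multiples of 1 step per column and were read as a coverage signal per coding exon, each at least 0.8 in both stages. Levels were compared for the same gene between stages only. Its depth in reads is unknown, and 1 unit is 1835 steps in progenitors and 2151 in erythroblasts. Of 6853 transcripts 6772 matched a symbol in RefSeq GRCm38.p6. The transcript with the most listed exons stood for a gene, and its exons were summed, which gave 5194 genes.

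Overlaps, distances and Wilson 95% intervals, which cover counting error only, were computed with scipy 1.17.1, numpy 2.4.6 and pandas 2.3.3 under Python 3.11.15, and figures with matplotlib 3.10.9. The 2-fold rule was the planned method, and a limma model was planned only for a column per library, which was lacking. The steps were tested on simulated data. Members and gene lists were chosen with earlier results of these data known. Named regions were the 10 members ranked highest in erythroblasts, the 5 of highest progenitor rank among the rest, the widest, the farthest, those at the rule's edges and those near Tfrc. Named genes were those with the most members nearest, the 8 largest changes each way where the higher stage had at least 5, and up to 3 per list, with other list members added after their values were seen. Not every named item is reported here. Input libraries were not used here. Alternatives changed the overlap, the distance, the rank, the RNA summary and the window around genes.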

Additional observations from a re-analysis of the deposited data

How the results depend on the processing

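No paired analysis was possible because each stage has 1 pooled peak list and 1 RNA column, and leaving out a replicate was not possible for the same reason. With only the upper part of each list by rank, the count of members was 2171, the shared share beyond 1 kb 24.9%, the median enrichment 13.2 and the share between listed exons 0.184%. With a distance of more than 5 kb the shared share was 27.9%. The share of genes near a member that rose was 19.0% with a pseudocount of 0.1 (18.1% over all genes), 18.6% where the higher stage had at least 5 (17.9%), 19.5% with the median of exon ratios (19.2%) and 13.8% within 5 kb (15.3%). The share that fell was 16.03% with the pseudocount of 0.1 (15.6%) and 15.5% where the higher stage had at least 5 (15.2%). The other settings left each of these values within its interval, or the count within 1.5 times: an overlap of 50% of the shorter peak, more than 2 kb, the peak's centre, columns scaled to the same median, and 50 kb around genes. So did leaving out the peaks in small RNA and histone gaps, an alternative chosen after seeing the data, with 5056 members and a median enrichment of 10.75. Read depth is not given, so how many weak partners were missed in progenitors was not tested.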
